A study of Mus musculus with 6 samples.

Results

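The genes described here encode the classical ligands and receptors of axon guidance. They are the semaphorins with their plexin and neuropilin receptors, the ephrins with the Eph receptors, netrins 1 and 4 with the Unc5 receptors, and the Slit ligands with the Robo receptors. Members were chosen by name: a probe belonged to the set where its RefSeq accession matched a mouse gene whose symbol starts with one of these family names, or is Ntn1, Ntn4, Nrp1 or Nrp2. The rule took 107 of 41174 probes, for 72 of 32225 genes and transcripts. Of the 72 genes, 64 belong to the guidance families, and 8 share only the start of the name (Slitrk1 to Slitrk6, Unc50 and Unc5cl). The rule used no measured value. Of the 64 guidance genes 59 were tested, after a filter that asked 1 group or both to read well above background on each of its 3 arrays, and 57 of those 59 did so on all 6 arrays. The 5 left out were Epha6, Epha8, Epha10, Efna2 and Unc5d, none of which was above background on more than 1 array. Slitrk3, Slitrk4 and Unc5cl were left out for the same reason, with no array above background, so that 5 of the 8 genes outside the families were tested. Efna3 and Sema3g were not analysed here.

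The cells were primary astrocytes of C57BL/6 mice, prepared from the cerebral cortex on embryonic day 18 and bought as a culture. Transfected 3 weeks after plating, 1 group received 80 nM of precursors of the human miR-29 family (miR-29a, miR-29b and miR-29c mixed 1 to 2 to 1, "miR-29" below), and the other received 80 nM of a negative control precursor ("control" below). All cells were harvested 48 h later, and total RNA was labelled with Cy3 and hybridised to 6 one-colour Agilent Whole Mouse Genome arrays, 3 for each group. The 3 arrays of a group are described as extraction replicates, and no label gives separate cultures, so p-values reflect the spread among these extractions alone, which may be technical. As a model the data are 1 time point of a purchased culture in which the microRNA was raised by transfection.

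Guidance ligands bind receptors on a growing axon or a migrating cell and steer it by changing the actin cytoskeleton through small GTPases. Secreted semaphorins act through neuropilins that pair with plexins, while most membrane-bound semaphorins bind plexins directly. Ephrins are themselves attached to the membrane, so Eph signalling needs contact between cells and can run in both directions. Astrocytes use several of these systems, among them ephrins that meet EphA4 of neurons at synapses. A microRNA of the miR-29 family lowers messenger RNAs that pair with its seed, and such pairing was not examined here because the array files hold no transcript ends.

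The seed decides which transcripts a microRNA pairs with, so the mature mouse sequences of the transfected family are shown, from RefSeq on build GRCm38.p6, 5′ to 3′, with the seed (bases 2 to 8) in capitals.
mmu-miR-29a-3p: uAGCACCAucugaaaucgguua
mmu-miR-29b-3p: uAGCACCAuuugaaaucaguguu
mmu-miR-29c-3p: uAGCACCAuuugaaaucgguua
All 3 share the seed AGCACCA and differ only outside it. Counted from the 5′ end, with the base of miR-29a first, miR-29c differs by C10U, and miR-29b by C10U, G18A, U21G and A22U and by 1 more base at its end. The mature sequence of miR-29a lies at chr6:31062673-31062694 on the minus strand and that of miR-29c at chr1:195037600-195037621 on the plus strand. The mature sequence of miR-29b comes from both clusters, at chr6:31063025-31063047 (minus) and chr1:195037091-195037113 (plus).

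On each array 61.9% to 66.8% of probes read well above background, and 0 spots were saturated. The 3 miR-29 arrays shared slide 1 with control array 1, and control arrays 2 and 3 were on slide 2. All 8 astrocyte markers were above background on all 6 arrays, and their summed signal was 84.5 to 93.2 times the array's 75th percentile in miR-29 arrays and 56.0 to 59.8 times in control arrays. Fibroblast and mural markers summed to 385 to 416 times in miR-29 arrays and 247 to 275 times in control arrays, with 6 of 7 above background on all arrays and Rgs5 on none. Neuronal markers (6 of 8 above background on all arrays) summed to 4.15 to 4.21 times and 3.34 to 3.46 times, and oligodendrocyte lineage markers (7 of 7) to 2.79 to 2.86 times and 2.80 to 2.82 times. Endothelial markers (2 of 6 on all arrays, Tek on none) summed to 1.76 to 1.88 times and 2.09 to 2.45 times. Microglial markers (2 of 6 on all arrays) summed to 0.114 to 0.151 times and 0.132 to 0.238 times, with Aif1, Cx3cr1 and Tyrobp above background on none. The sums of astrocyte, fibroblast and mural, and neuronal markers were thus higher, and that of endothelial markers lower, on all 3 miR-29 arrays than on all 3 control arrays, and their part in the results below was not tested. The members of a list did not all follow its sum. Flt1 makes up most of the endothelial sum and fell by 0.35 on the log2 scale, while Vwf rose by 0.84 and Cdh5 was at 0.21 and did not pass. The fibroblast and mural sum rests mostly on Acta2 and Cnn1, which rose by 0.62 and 1.34. Myh11 and Lum rose by 1.61 and 0.43, while Pdgfrb fell by 0.67 and Dcn was at 0.18 and did not pass. The neuronal sum rests mostly on Tubb3, which rose by 0.48. Elavl3 and Elavl4 rose by 1.66 and 1.39, while Map2 fell by 0.30 and Rbfox3, Syt1 and Dcx did not pass. Of the 8 astrocyte markers 5 rose, and Aqp4, S100b and Slc1a2 did not pass.

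The guidance families did not move as a block. Of the 59 genes tested, 16 fell, 20 rose and 23 did not pass the test (limma, Benjamini-Hochberg adjusted p under 0.05 over all 19741 genes and transcripts). This is 61.0% past the test, beside a background of 58.1% of all genes tested, with 22.7% lower and 35.3% higher. The median log2 fold change (miR-29 minus control) was 0.0019 over the guidance genes and 0.068 over all genes. A change of at least 2-fold past the test was found in 2 lower genes, Epha3 and Sema3c, and 6 higher genes, Epha4, Plxnc1, Efna4, Sema4a, Sema6a and Plxnb3 (background 3.64% of genes lower and 3.29% higher). Plxnb3 enters this count and that of the 20 higher genes by its fitted difference alone. No control array read it above background, and the bound on its change is 1.89-fold. The groups of 3 arrays did not overlap in 41 of the 59 genes, or 69.5%, beside 66.2% of all genes. In these cultures, fewer cells of a type and less RNA per cell cannot be told apart.

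Ligands and receptors each split in both directions. Of 30 ligands 5 fell and 10 rose, 15 did not pass, and the median was -0.047. Of 29 receptors 11 fell and 10 rose, 8 did not pass, and the median was 0.011. When the arrays were scaled to the spike-in controls, RNAs added in equal amounts to each sample, the median of all genes moved by -0.25 on the log2 scale, and 27 guidance genes were then lower and 11 higher. The direction of a small change therefore depends on the scaling, and changes below are relative to each array's 75th percentile unless another scaling is named.

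**Figure D1:**
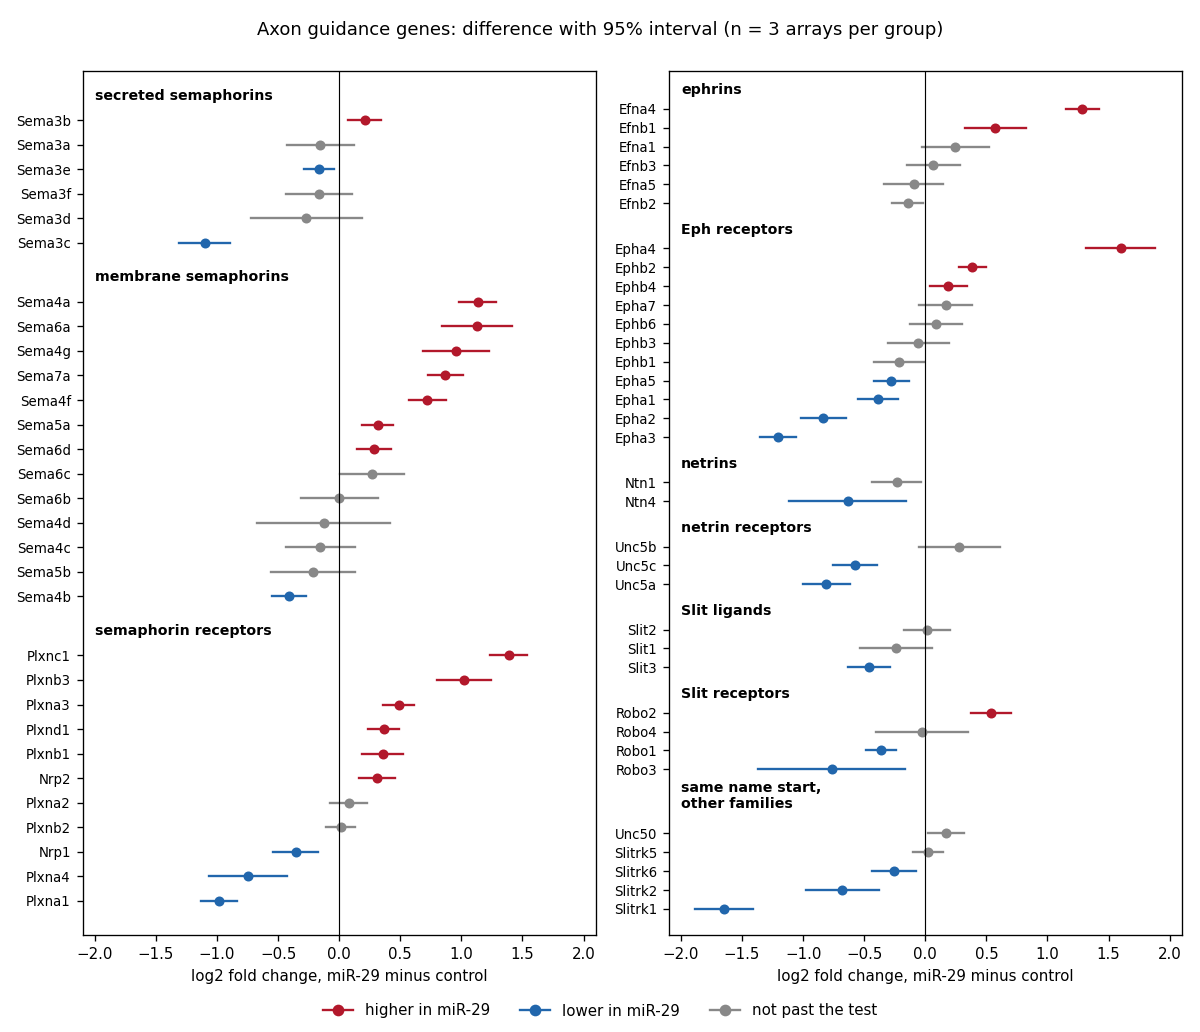
Log2 fold change, miR-29 minus control, with its 95% confidence interval for the 64 genes tested, grouped by role, with genes higher in miR-29 in red, lower in blue and not past the test in grey. Within the Eph receptors the values run between 1.60 for Epha4 and -1.20 for Epha3, while among the membrane semaphorins Sema4b is the 1 gene past the test on the left.

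Among the secreted semaphorins, Sema3c fell by more than 2-fold, and the other 5 genes lay within 0.3 of 0 on the log2 scale with their brightest probe. Sema3c, which signals through neuropilins with plexins, read 4.96%, 5.13% and 4.95% of the array's 75th percentile in miR-29 arrays, against 12.2%, 10.3% and 9.94% in control arrays. Each miR-29 array lay well below each control array, a 2.14-fold lower signal (log2 fold change -1.10, SE 0.0851, adjusted p = 0.000192, n = 3 per group). With normexp, a background correction that damps dim spots, the difference was -0.48. Sema3e, a ligand that binds plexin D1 without a neuropilin, fell by 0.16 with its brightest probe, and Sema3b rose by 0.21. Both of these small calls were lost with some arrays left out: Sema3e at -0.19 without control array 2 and -0.14 without control array 3, and Sema3b at 0.18 without miR-29 array 1, 0.21 without miR-29 array 2 and 0.18 without control array 3. Scaled to the spike-ins, Sema3b was at -0.042. The calls of Sema3e and Sema3b were also lost with median scaling, without the filter, and with the slide as a term in the fit. Sema3a, the archetypal axon repellent, was at -0.15 (95% interval -0.43 to 0.12), Sema3f, a ligand of neuropilin 2, at -0.17, and Sema3d, which 2 of 3 miR-29 arrays read above background, at -0.27, none of them past the test. Sema3f passed as lower at -0.36 once the slide was a term in the fit, a slide block (adjusted p = 0.0497), and with spike-in scaling (-0.42, adjusted p = 0.0241), and Sema3d with spike-in scaling (-0.52).

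Of 13 membrane-bound semaphorins 7 rose, 1 fell and 5 did not pass. This is 61.5% past the test, beside 58.1% of all genes. By direction 53.8% were higher and 7.69% lower, beside 35.3% and 22.7% of all genes. The family was not tested as a set. The median of the 13 genes was 0.29, beside 0.068 over all genes. Scaled to the spike-ins, 5 were higher and 3 lower, with a median of 0.035. Sema7a, the member held in the membrane by a lipid anchor, read 2454%, 2259% and 2249% of the 75th percentile in miR-29 arrays, against 1231%, 1324% and 1256% in control arrays. All 3 miR-29 arrays lay above all 3 control arrays, 1.83-fold higher (log2 fold change 0.87, SE 0.0585, adjusted p = 0.000123). Sema4a, a class 4 semaphorin also known for roles in immune cells, read 25.8%, 23.4% and 23.0% in miR-29 arrays, against 11.4%, 10.8% and 10.8% in control arrays. This was a 2.19-fold higher signal with no overlap (1.13, SE 0.0623, adjusted p = 7.15e-05).

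Sema6a, a transmembrane ligand of plexins A2 and A4, read 10.1%, 12.6% and 12.1% in miR-29 arrays, against 4.69%, 5.39% and 5.83% in control arrays. It was 2.18-fold higher without overlap (1.13, SE 0.117, adjusted p = 0.000524), while its second probe gave 0.18 and did not pass. Sema4g read 8.71%, 8.90% and 7.67% in miR-29 arrays, against 4.16%, 5.01% and 3.91% in control arrays, 1.94-fold higher (0.95, SE 0.111, adjusted p = 0.00081). Sema4f read 10.4%, 9.70% and 9.30% in miR-29 arrays, against 6.21%, 5.89% and 5.73% in control arrays, 1.65-fold higher (0.72, SE 0.0634, adjusted p = 0.000296). For all of these dim genes the miR-29 arrays were the higher ones without exception. Normexp kept the calls of Sema4a, Sema6a, Sema4g and Sema4f but gave smaller differences of 0.62, 0.49, 0.27 and 0.37.

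Sema5a, a semaphorin with thrombospondin repeats, and Sema6d, a ligand of plexin A1, rose by 0.31 and 0.29, and both calls ended with spike-in scaling (0.063 and 0.035). Slide 1 allows a comparison with control array 1 alone, in which that array has no spread of its own and is assumed to vary like the miR-29 arrays. There Sema6d did not pass (0.21, adjusted p = 0.0698), while with a slide block the same difference passed (adjusted p = 0.0384). Sema4b, the gene of this family that fell, was at -0.41 (SE 0.0566, adjusted p = 0.00158), a call that ended with normexp (-0.14, adjusted p = 0.114). Sema4d, a ligand of plexin B1, read 95.5%, 108% and 102% in miR-29 arrays, against 77.4%, 136% and 130.0% in control arrays. Its control array on slide 1 lay below, and both control arrays of slide 2 above, all 3 miR-29 arrays. Over all arrays its difference was -0.13 (SE 0.222), against the control array of the same slide it was 0.39 (adjusted p = 0.0184 with a slide block and 0.0356 on slide 1 alone), and without control array 1 it was -0.39 (adjusted p = 0.00654). Sema4c and Sema5b had the same arrangement of arrays. They were at -0.15 and -0.21 over all arrays, neither past the test, and at -0.28 and -0.37, both past it, without control array 1. With spike-in scaling both passed as lower, Sema4c at -0.40 (adjusted p = 0.0420) and Sema5b at -0.46 (adjusted p = 0.0445). Sema6b was at 0.0019 (95% interval -0.31 to 0.32) and Sema6c at 0.27, which passed without miR-29 array 3 (0.39, adjusted p = 0.00417).

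**Figure D2:**
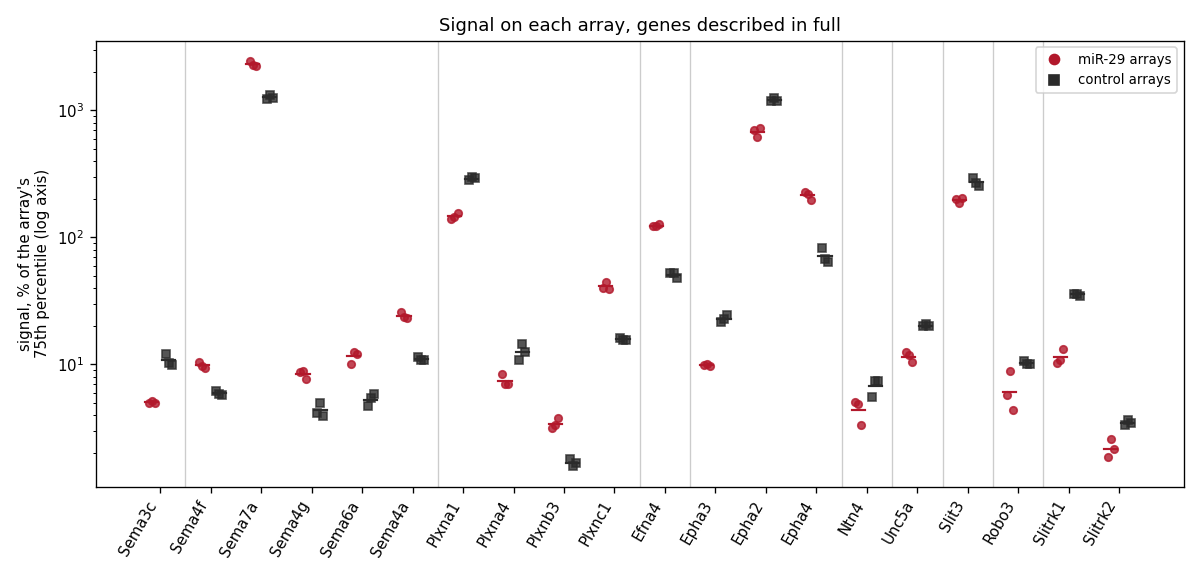
Signal of each array as a percentage of the array's 75th percentile, on a log axis, for the 20 genes described in full, with miR-29 arrays as red circles, control arrays as black squares and a short line at each group mean. Sema7a lies between 2249% and 2454% in miR-29 arrays and 1231% and 1324% in control arrays, while Robo3 shows the widest spread among its miR-29 arrays, 4.35% to 8.80%.

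The receptors of the semaphorins moved in both directions, 6 higher, 3 lower and 2 not past the test of 11, with a median of 0.31. By direction 54.5% were higher and 27.3% lower, beside 35.3% and 22.7% of all genes. Scaled to the spike-ins, 2 were higher and 4 lower, with a median of 0.059. Plxnc1, the plexin that binds Sema7a, read 39.8%, 44.2% and 39.4% in miR-29 arrays, against 16.1%, 15.6% and 15.5% in control arrays. The arrays of each group were close together and far from the other group, a 2.61-fold higher signal (log2 fold change 1.39, SE 0.0612, adjusted p = 4.61e-05), and its second probe gave 1.24. Plxnb3, a receptor of Sema5a, read 3.17%, 3.32% and 3.79% in miR-29 arrays, against 1.81%, 1.57% and 1.67% in control arrays. None of its control readings was well above background, so it was at least 1.89-fold higher. On each control array this bound was set by whichever was higher, Plxnb3 itself or the dimmest signal above background. The bound was not tested. Its place among the 6 higher receptors rests on the fitted difference of 1.02, which uses those control readings. Plxnb3 passed the filter only through the miR-29 arrays, and with normexp it was at 0.13 (adjusted p = 0.250).

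Plxna1, a signalling partner of neuropilins and a receptor of Sema6d, read 140.0%, 145% and 157% in miR-29 arrays, against 281%, 297% and 294% in control arrays. Its signal was 1.98-fold lower with no overlap (-0.98, SE 0.0598, adjusted p = 9.2e-05), and a dimmer second probe gave -0.58 and did not pass. Plxna4, a receptor of class 3 and class 6 semaphorins, read 8.39%, 6.95% and 7.06% in miR-29 arrays, against 10.7%, 14.5% and 12.5% in control arrays. This 1.68-fold lower signal (-0.75, SE 0.130, adjusted p = 0.00399) was matched by the second probe (-0.95), and normexp gave -0.37. The third gene that fell was Nrp1, the neuropilin that binds Sema3a, at -0.36 (SE 0.0748, adjusted p = 0.0082). Its relative Nrp2 rose by 0.31 (SE 0.0616, adjusted p = 0.00667). With the slide as a block both calls held, at -0.37 for Nrp1 (adjusted p = 0.0438) and 0.29 for Nrp2 (adjusted p = 0.0456), and on slide 1 alone neither passed (adjusted p = 0.0740 and 0.0713). With spike-in scaling Nrp2 was at 0.059 and did not pass (adjusted p = 0.437).

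Plxna3, Plxnd1 and Plxnb1 rose by 0.49, 0.37 and 0.36, with SE between 0.0512 and 0.0687, and did not pass with spike-in scaling (0.24, 0.11 and 0.10). Plxnb2 and Plxna2 did not pass, at 0.011 (95% interval -0.11 to 0.13) and 0.077 (-0.07 to 0.23). The A-type plexins therefore held 2 genes that fell, 1 that rose and 1 that did not pass, on this scaling. Set beside their known ligands, Sema7a and Plxnc1 were at 0.87 and 1.39 and Sema4d and Plxnb1 at -0.13 and 0.36. Sema6a was at 1.13 and its receptors Plxna4 and Plxna2 at -0.75 and 0.077. Sema3e was at -0.16 and Plxnd1 at 0.37. The pair of Sema5a and Plxnb3 was not counted, since Plxnb3 passed the filter only through the miR-29 arrays. Sema6d was at 0.29 and its receptor Plxna1 at -0.98. Where both genes passed the test, Sema7a and Plxnc1 were both higher. Sema6a and Plxna4, Sema3e and Plxnd1, and Sema6d and Plxna1 lay on opposite sides of 0. Sema4d and Plxna2 did not pass, so their sides of 0 are not read. Not every known pair was set side by side.

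Of 6 ephrins tested Efna4 and Efnb1 rose and 4 did not pass, while scaling to the spike-ins gave 2 higher and 2 lower. Efna4, a lipid-anchored ligand of EphA receptors, read 123%, 123% and 127% in miR-29 arrays, against 52.8%, 52.1% and 47.9% in control arrays. The signal was 2.44-fold higher and the arrays of a group lay close together (log2 fold change 1.28, SE 0.0558, adjusted p = 4.48e-05). Efnb1, a transmembrane ligand of EphB receptors, read 521%, 515% and 492% in miR-29 arrays, against 397%, 331% and 306% in control arrays (0.57, SE 0.102, adjusted p = 0.00428). Its control array on slide 1 was the highest of the 3 controls, and against that array alone the difference was 0.36 (adjusted p = 0.0142 with a slide block). Efnb2 was at -0.14 (adjusted p = 0.0569), Efna5 at -0.095, Efnb3 at 0.064 and Efna1 at 0.25. Efnb2 passed as lower with normexp (-0.16, adjusted p = 0.0348) and with quantile, spike-in and deposited-table scaling and another variance model, and Efna1 passed as higher without control array 2 (0.34, adjusted p = 0.0474).

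The Eph receptors held both the largest rise and the largest fall among the 59 guidance genes. Epha4, a receptor of both ephrin classes that astrocytes are known to express, read 229%, 219% and 197% in miR-29 arrays, against 82.8%, 67.6% and 63.6% in control arrays. The lowest miR-29 array lay above the highest control array, a 3.03-fold higher signal (log2 fold change 1.60, SE 0.115, adjusted p = 0.000151), and the second probe gave 1.10. Epha3, a receptor of the A-class ephrins, read 9.82%, 10.2% and 9.80% in miR-29 arrays, against 21.6%, 22.7% and 24.4% in control arrays. Its signal was 2.30-fold lower (-1.20, SE 0.0603, adjusted p = 5.72e-05), the second probe gave -1.19, and normexp gave -0.71.

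Epha2, a receptor of ephrin A1 studied widely in epithelia and gliomas, read 699%, 617% and 733% in miR-29 arrays, against 1189%, 1263% and 1196% in control arrays. All 3 miR-29 arrays lay below all 3 control arrays, 1.78-fold lower (-0.83, SE 0.0761, adjusted p = 0.000339). Epha1 and Epha5 also fell, by 0.39 (SE 0.0666, adjusted p = 0.00386) and 0.28 (SE 0.0592, adjusted p = 0.00878). The call of Epha5 ended with normexp (-0.089, adjusted p = 0.229) and with a slide block (-0.24, adjusted p = 0.0602). Ephb2, a receptor of B-class ephrins, rose by 0.39 (SE 0.0453, adjusted p = 0.000843) and did not pass with spike-in scaling (0.14, adjusted p = 0.124). Ephb4, the receptor of ephrin B2 in vessels, was just past the test at 0.19 (adjusted p = 0.0419). It did not pass when miR-29 array 1, 2 or 3 or control array 2 or 3 was left out (0.15 to 0.21), and with spike-in scaling it was at -0.062. Nor did it pass with normexp, with quantile, median or deposited-table scaling, without the filter, or with a slide block. Ephb4 kept its call in only 4 of 18 alternatives. Epha7, Ephb6, Ephb3 and Ephb1 did not pass, at 0.17, 0.088, -0.056 and -0.22, although Ephb1 passed as lower with quantile, spike-in and deposited-table scaling, and Ephb3 with spike-in scaling. Efna4 and Epha4, which can bind each other, were both higher on the miR-29 arrays, and the receptors that fell were all of the A class.

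The netrin group was measured on few genes. In the main comparison 3 of them fell and none rose, while over all genes 22.7% were lower and 35.3% higher. Among those that fell, Ntn4 lost its call in 9 of 18 alternatives, and Unc5b passed as higher in 2. Unc5a and Unc5c encode receptors through which netrin 1 repels axons. Unc5a read 12.6%, 11.8% and 10.4% in miR-29 arrays, against 19.9%, 20.7% and 20.1% in control arrays, a 1.75-fold lower signal without overlap (log2 fold change -0.81, SE 0.0789, adjusted p = 0.000423). Normexp gave -0.46. Unc5c read 63.1%, 59.8% and 56.0% in miR-29 arrays, against 96.0%, 84.2% and 86.5% in control arrays, and was 1.49-fold lower (-0.58, SE 0.0746, adjusted p = 0.00123). Unc5b, the third receptor tested, read 692%, 645% and 510.4% in miR-29 arrays, against 545%, 525% and 449% in control arrays. Its groups overlapped (0.28, 95% interval -0.06 to 0.61), and it passed as higher without miR-29 array 3 (0.41, adjusted p = 0.0288).

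Ntn4, a netrin of basement membranes, read 5.04%, 4.86% and 3.33% in miR-29 arrays, against 5.58%, 7.45% and 7.36% in control arrays (-0.64, SE 0.196, adjusted p = 0.0334). Its miR-29 array 3 was the lowest and its control array 1 lay nearest to the miR-29 arrays. The call of Ntn4 was lost without miR-29 array 2 (-0.72), miR-29 array 3 (-0.45), control array 2 (-0.56) or control array 3 (-0.57), and it was at -0.094 with normexp (adjusted p = 0.505) and at -0.36 with a slide block (adjusted p = 0.279). Ntn1, the netrin of the spinal cord floor plate, was at -0.23 (SE 0.0827, adjusted p = 0.0511) and passed as lower without control array 1 (-0.30, adjusted p = 0.0176), with each of the other scalings except normexp, with another filter and with another variance model.

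Of the 3 Slit ligands, repellents of the midline, Slit3 fell and Slit1 and Slit2 did not pass. Slit3 read 202%, 188% and 203% in miR-29 arrays, against 293%, 270.0% and 253% in control arrays, 1.37-fold lower without overlap (log2 fold change -0.46, SE 0.0707, adjusted p = 0.00244). Slit2 was at 0.012 (95% interval -0.18 to 0.20) with one probe and -0.020 with the other. Slit1 was at -0.24 and passed as lower without control array 1 (-0.36, adjusted p = 0.0154) and with spike-in scaling (-0.49, adjusted p = 0.0244).

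Among the Slit receptors Robo1 and Robo3 fell, Robo2 rose and Robo4, the member known from endothelium, was at -0.029 (95% interval -0.41 to 0.35). Robo1, a main receptor of the Slits, read 39.9%, 42.1% and 39.8% in miR-29 arrays, against 52.2%, 50.6% and 53.5% in control arrays (-0.36, SE 0.0498, adjusted p = 0.00161). Robo2 read 7.08%, 7.66% and 6.70% in miR-29 arrays, against 4.71%, 5.04% and 4.99% in control arrays (0.54, SE 0.0659, adjusted p = 0.000997), and was at 0.16 with normexp (adjusted p = 0.167). Robo3, which in commissural axons lowers the response to Slit before the midline is crossed, read 5.70%, 8.80% and 4.35% in miR-29 arrays, against 10.6%, 10.1% and 10.1% in control arrays. Its control arrays lay close together and its miR-29 arrays did not (-0.77, SE 0.246, adjusted p = 0.0379). The call of Robo3 was lost without miR-29 array 1 or 3 or any single control array (-0.53 to -0.78, adjusted p between 0.0719 and 0.102) and with a slide block (-0.82, adjusted p = 0.134). Its second probe gave -0.72 and passed. Slit3 and Robo1 were thus both lower, and Robo1 and Robo2 moved in opposite directions.

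The genes that share only the start of the name with these families were counted apart: of 5 tested, 3 fell and 2 did not pass. Slitrk1, a membrane protein of synapses with leucine-rich repeats, read 10.3%, 10.8% and 13.1% in miR-29 arrays, against 36.0%, 36.1% and 34.7% in control arrays. At 3.14-fold lower (log2 fold change -1.65, SE 0.0977, adjusted p = 8.5e-05) it was the largest change of the 64 genes taken by the rule and tested, and normexp gave -1.04. Slitrk2 read 1.86%, 2.57% and 2.15% in miR-29 arrays, against 3.36%, 3.65% and 3.44% in control arrays (-0.68, SE 0.122, adjusted p = 0.00443), and was at -0.11 with normexp (adjusted p = 0.352) and at -0.63 with a slide block (adjusted p = 0.0411) and on slide 1 alone (adjusted p = 0.0686). Slitrk6 fell by 0.26, a call lost without miR-29 array 1, 2 or 3 or control array 3 (-0.23 to -0.28). Slitrk5 and Unc50 did not pass, at 0.021 and 0.17, and Unc50 passed as higher without miR-29 array 3 (0.21) or control array 1 (0.20).

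Where a gene had more than 1 measured probe, the probes offered a check within the same arrays. Over the 26428 probes kept, 58% passed the test in either direction. Of 25 guidance genes with 2 or more such probes, 12 had the same call on all of them, 13 had calls on some probes only, and 0 had probes called in opposite directions. The probes agreed in direction and call for Epha3, Epha4, Plxnc1, Plxna4, Robo3, Plxnb1 and Sema3e. For Sema3e the sizes differed, -0.16 with the brightest probe and -0.68 with the other.

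Signs were opposite in 8 genes. Sema4c gave -0.15 with its brightest probe and rose by 0.61 with the other, Efna5 gave -0.095 and 0.55, and Efnb2 gave -0.14 and 0.28, the second value past the test each time. Sema5b gave -0.21, 0.21 and 0.17, of which the 0.21 passed. Ntn1 gave -0.23 and 0.73, Sema6c 0.27 and -0.36, Sema3a -0.15 and 0.099, and Slit2 0.012 and -0.020, with no probe past the test. Plxna2 gave 0.077, 0.17 and 0.38, the last past the test. Ephb2, Robo2, Plxna3, Sema5a and Nrp1 kept their direction on a second probe that did not pass (0.15, 0.28, 0.13, 0.25 and -0.21), and Sema3f gave -0.17 and -0.21, the second past the test. Which part of each transcript a probe reads was not examined here.

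**Figure D3:**
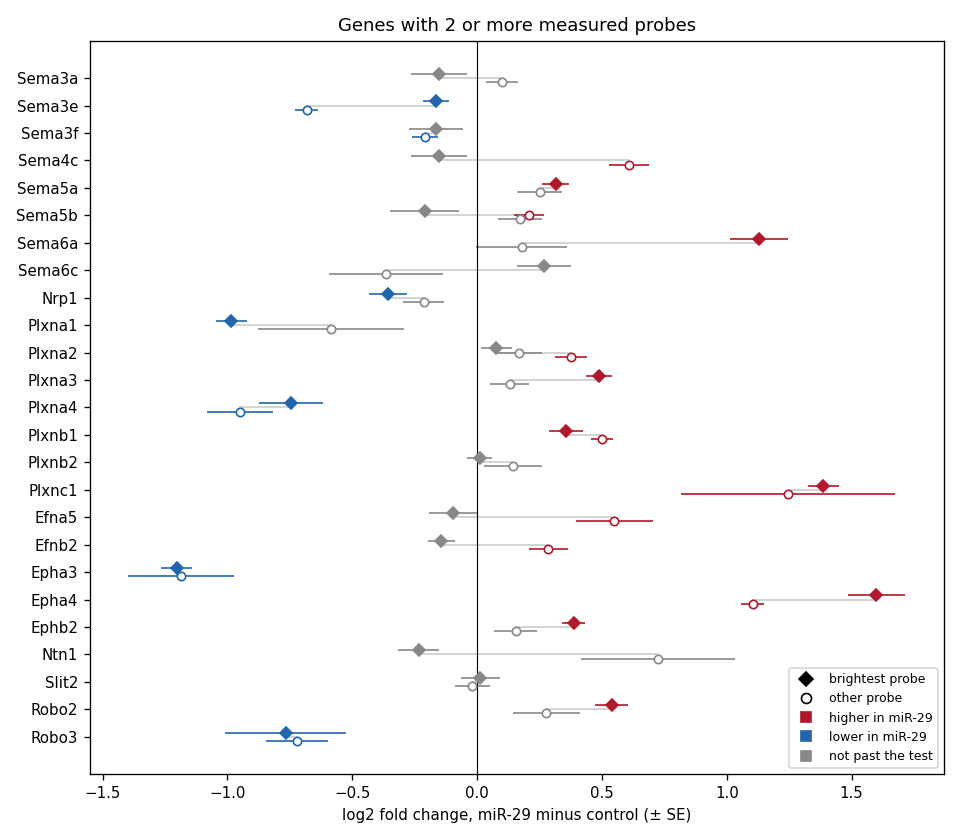
Log2 fold change, miR-29 minus control, with SE for every measured probe of the 25 guidance genes with more than 1, the brightest probe as a diamond and the others as open circles, in red where higher, blue where lower and grey where not past the test. The markers of Epha3 lie together at -1.20 and -1.19, while those of Sema4c lie on opposite sides of 0, at -0.15 and 0.61.

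Co-receptors and intracellular partners of these receptors were read from a list of 78 genes, of which 69 were tested. Of these 23 fell and 18 rose, and 28 did not pass, 59.4% past the test beside the background of 58.1%. By direction 33.3% were lower and 26.1% higher, beside 22.7% and 35.3% of all genes. The median was -0.067, beside 0.068 over all genes. A change of at least 2-fold past the test was found in 5 lower genes and 1 higher gene (background 3.64% of genes lower and 3.29% higher). Scaled to the spike-ins, 40 were lower and 8 higher. Dpysl3, a collapsin response mediator that links semaphorin signals to the cytoskeleton, read 527%, 541% and 473% in miR-29 arrays, against 1676%, 1674% and 1548% in control arrays. All 3 miR-29 arrays were far below the controls (log2 fold change -1.67, SE 0.0705, adjusted p = 4.24e-05).

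Rnd1, a small GTPase that binds plexins, read 70.2%, 65.9% and 66.8% in miR-29 arrays, against 202%, 176% and 171% in control arrays (-1.43, SE 0.0761, adjusted p = 6.55e-05). Arhgef12, an exchange factor that couples B-type plexins to RhoA, read 414%, 435% and 418% in miR-29 arrays, against 966%, 1027% and 977% in control arrays (-1.23, SE 0.0496, adjusted p = 3.99e-05). For both genes the groups were well apart. The Rac exchange factor Tiam1 fell by 1.11, the Ras family GTPase Rras2 by 1.07, the exchange factor Vav2 by 0.94 and the adaptor Nck2 by 0.80, with SE between 0.0419 and 0.105. With normexp Tiam1 was at -0.69 and Vav2 at -0.61.

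Enah, an actin regulator that lengthens filaments, read 296%, 266% and 297% in miR-29 arrays, against 134%, 130.4% and 129.6% in control arrays (1.12, SE 0.0597, adjusted p = 6.55e-05). Myl9, a regulatory light chain of myosin that contractile and mural cells hold in abundance, rose by 0.90 (SE 0.0561), beside the contractile markers Acta2 and Cnn1, which rose by 0.62 and 1.34, and the mural marker Pdgfrb, which fell by 0.67. Srgap1, a GTPase-activating protein that binds Robo receptors, rose by 0.98 (SE 0.154), a call that ended with normexp (0.27, adjusted p = 0.104). Among the GTPases at the centre of the pathway, Cdc42 and Rac1 fell by 0.50 and 0.23 and Rhoa did not pass at -0.16. Of the kinases of the actin regulator cofilin, Limk1 and Limk2 rose by 0.65 and 0.58. The netrin receptor Neo1 was at -0.011 and did not pass.

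**Figure D4:**
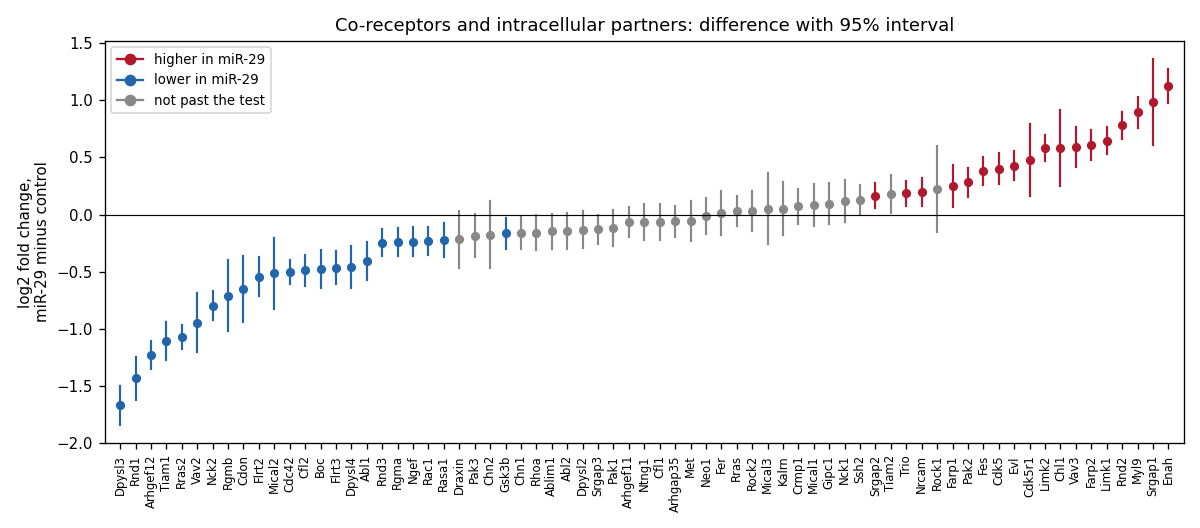
Log2 fold change, miR-29 minus control, with its 95% confidence interval for the 69 tested co-receptors and intracellular partners, ordered by size, in red where higher in miR-29, blue where lower and grey where not past the test. The values run between -1.67 for Dpysl3 and 1.12 for Enah, and Neo1 lies close to 0.

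Of the 36 guidance genes past the test, 19 kept their call under every alternative run on genes, apart from a stricter threshold. They were Epha1, Epha2, Epha3, Plxna1, Plxna4, Robo1, Sema3c, Slit3, Unc5a and Unc5c among the 16 lower genes, and Efna4, Efnb1, Epha4, Plxnc1, Sema4a, Sema4f, Sema4g, Sema6a and Sema7a among the 20 higher genes. They cover all 4 ligand and receptor systems, the netrins through their receptors alone. Single probes are not among these alternatives, and the second probes of Plxna1 and Sema6a did not pass. The same share was not computed over all genes, so 19 of 36 cannot be set beside a background.

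**Figure D5:**
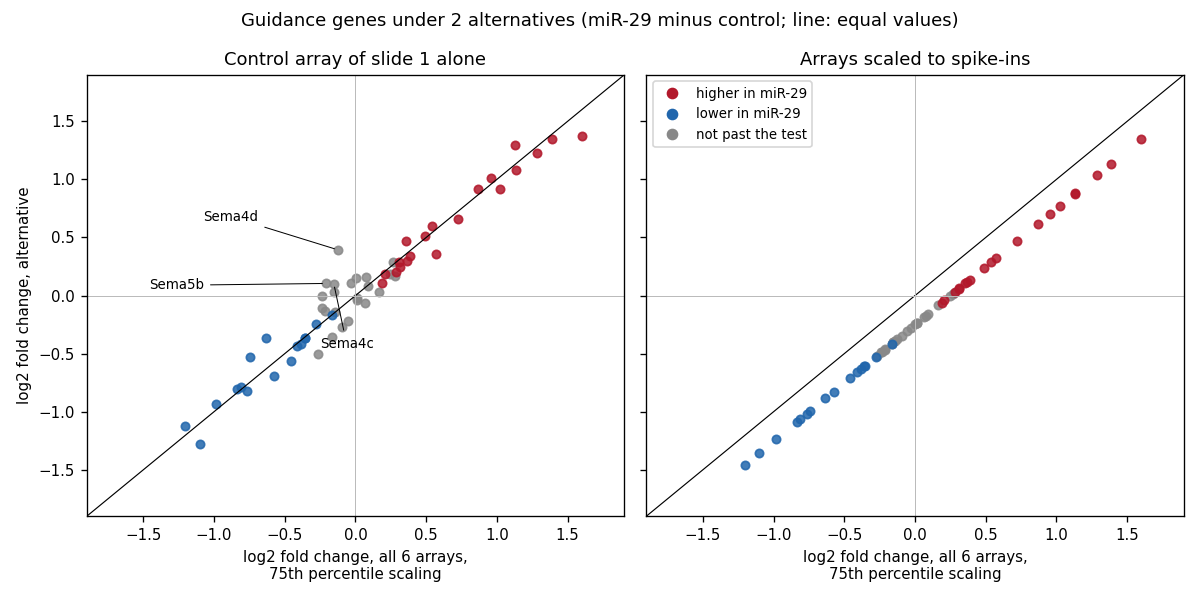
Log2 fold change, miR-29 minus control, of the 59 guidance genes under an alternative (vertical axis) against the value over all 6 arrays scaled to the 75th percentile (horizontal axis), coloured by the call over all 6 arrays. On the left, against control array 1 of the same slide, Sema4d moves to 0.39. On the right spike-in scaling moves all points by the same -0.25, so all lie below the line of equal values.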

How the data were processed

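Gene expression was read from 6 one-colour Agilent arrays. Per the file headers, Agilent Feature Extraction 10.7.3.1 (10.7 in the submitters' processing notes) turned each spot into a linear intensity with its background subtracted, the processed signal. A value table of all arrays, deposited by the authors, repeats this intensity times 1 constant per array (2.63 to 3.43), linear and not centred, by an unstated rule. Its miR-29 columns had medians of 149.3, 155.4 and 148.8, and its control columns of 146.3, 164.8 and 162.2. There were 0 columns of other samples.

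From the deposited intensity, log2 of the processed signal (floor 1) minus the array's 75th percentile over non-control spots (500.4 to 663.1) was computed, without control and outlier-flagged spots, and spots of 1 probe were averaged. Probes were kept where 1 group or both read well above background on each of its 3 arrays, 26428 of 41174. Unversioned accessions were matched to the RefSeq table of GRCm38.p6, which named 26933 probes with 1 gene and left 14241 unnamed. The array design is on another build, so no gene coordinates were used. The kept probe with the highest mean stood for a gene. Levels of different genes were not compared, apart from the marker sums, in which signals of different probes were added. These sums were not used to estimate shares of cell types. The 2 groups were compared in a two-sided test with limma 3.58.1 (lmFit, eBayes; R 4.3.3), adjusted by Benjamini-Hochberg over 19741 genes and transcripts, with a threshold of 0.05. The procedure was tested on simulated data. The number of arrays limits the precision.

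Arrays are shown in full for genes past the threshold with a log2 fold change of at least 0.58 in size and for the gene with the smallest adjusted p of a class with none. The array values of Efnb1, Robo1, Robo2, Sema4d, Unc5b and Unc5c were added after they were seen. Genes whose probes differ and the 10 largest changes of the partner list are named, and Cdc42, Rac1, Rhoa, Limk1, Limk2 and Neo1 were named after their values were seen. Members and lists were chosen with earlier results of these data known. Deviations of same-numbered arrays from their group means correlated at 0.132, 0.0937 and 0.245, so the numbers were not taken to pair them. Alternatives were normexp (offset 50), quantile, median and spike-in scaling (6 of 10 spike-in types detected), the deposited table, 2 other filters, the mean of all probes and each probe by itself, another variance model, the slide or replicate number as a block, slide 1 alone, a threshold of 0.01, and each array left out. Normexp used the median spot signal, since the files used here hold no mean signal.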

Additional observations from a re-analysis of the deposited data

How the results depend on the processing

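The count of 16 lower and 20 higher guidance genes, and of 23 lower and 18 higher partner genes, moved by over 1.5 times under 2 alternatives. Scaled to the spike-ins, 27 guidance genes were lower and 11 higher, and 40 partner genes lower and 8 higher, while over all genes 7607 were lower and 3010 higher (28.4% of those called were higher, beside 60.8% with the main scaling). With each kept probe counted by itself, which tests more features than genes, 41 partner probes were lower and 33 higher, and 21 guidance probes lower and 28 higher. With 1 array left out, the guidance counts ranged over 13 to 20 lower and 18 to 21 higher, and the partner counts over 20 to 26 lower and 13 to 20 higher. The counts over all genes then ranged over 3657 to 5933 lower and 5669 to 7361 higher. With the slide as a block 13 guidance genes were lower and 19 higher. Over all genes this block gave 3605 lower and 5664 higher, beside 4487 and 6974 without it. With the replicate number as a block 17 guidance genes were lower and 20 higher, as were 22 and 20 partner genes, and 4524 and 7000 of all genes. This block ended the calls of Ntn4 and Ephb4 and gave calls to Ephb1, Ntn1 and Unc5b, and the design does not say that the numbers pair the arrays.

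Of genes of the name rule and partner genes named here, and counting only those past the test over all 6 arrays or under the alternative, signs turned with spike-in scaling for Ephb4 (-0.062, adjusted p = 0.497), Sema3b (-0.042, adjusted p = 0.538), Slitrk5 (-0.23, adjusted p = 0.0430) and Plxnb2 (-0.24, adjusted p = 0.0276). Signs of such genes turned with the mean of all probes for Efna5 (0.23, adjusted p = 0.0210) and Sema4c (0.23, adjusted p = 0.0154), whose probes disagree. Of the same genes Sema4d turned in both slide alternatives, as a block (0.39, adjusted p = 0.0184) and with slide 1 alone (0.39, adjusted p = 0.0356). The causes were not tested, apart from the shift of all genes that the spike-in scaling brings. Normexp ended 6 and gave 1 of the calls of guidance genes. Signal over background limits the precision of the dim probes, such as those of Plxnb3, Ntn4 and Slitrk2.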
